A study of Homo sapiens with 31 samples.

Results

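The transcription factors that set and keep the intestinal character of the gut epithelium were followed across colorectal cancer cell lines and their RNA mixtures. The members are CDX1, CDX2, HNF4A, HNF4G, GATA6, KLF5 and ELF3, a list of 7 genes given by name. All 7 were present among the 17113 protein-coding genes of the count table, and all 7 passed the filter on low counts in the unmixed lines and in the mixtures.

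The measurement was bulk RNA sequencing of total RNA after ribosomal RNA removal, in 31 libraries. Each of 4 untreated adenocarcinoma lines was sequenced in 3 libraries: LoVo, HT-29 and HCT 116, labelled as colon, and LS1034, labelled as cecum. The reference was CCD 841 CoN, a line labelled normal colon, also in 3 libraries. RNA of each cancer line was also diluted into CCD 841 CoN RNA at 0.1, 1, 10 and 50%, with 1 library per line and percentage, so that a known share of cancer RNA could be compared with the share recovered. All lines grew in serum-supplemented medium with penicillin and streptomycin. Each group is 1 cultured line, and the labels do not say whether its 3 libraries came from separate cultures, so the p-values measure the spread between these libraries, which may be technical. With a single normal line, what separates it from the cancer lines by cancer status cannot be told apart from what separates them by cell type. In bulk RNA, fewer cells of a type and less RNA per cell cannot be told apart either.

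CDX1 and CDX2 are homeobox proteins of the caudal family that specify the posterior gut epithelium, and CDX2 is used in pathology to mark tumours of intestinal origin. HNF4A and HNF4G are paralogous nuclear receptors that bind the same DNA element and drive genes of absorption, lipid handling and the brush border. GATA6 is a zinc-finger factor of the endoderm, KLF5 a zinc-finger factor of proliferating crypt cells, and ELF3 an ETS factor restricted to epithelia. In mouse intestine several of these proteins bind the same enhancers and act on each other's genes.

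The libraries held 9688765 to 56741879 counts, with a median of 21616437. Levels are given as CPM, a gene's counts scaled to a common library total, which are not divided by gene length, so levels are compared between libraries and never between genes. The labelled tissue was checked against marker genes. The 8 colon epithelium markers summed to 9585 CPM in LoVo, 14375 CPM in LS1034, 18314 CPM in HT-29 and 4746 CPM in HCT 116, with none at 0, against 285 CPM in CCD 841 CoN, where 3 of the 8 had no count and KRT18 made up 232 CPM. Those 3 were also low in HCT 116, with VIL1 at 0.101 CPM, CDH17 at 0.182 CPM and KRT20 at 0.989 CPM. The 8 fibroblast markers, COL1A1 among them, summed to 5.34 to 18.1 CPM in the cancer lines against 28021 CPM in CCD 841 CoN. Of the 4 smooth muscle markers, ACTG2 and CNN1 stood at 0.422 CPM or less in the cancer lines against 1582 and 156 CPM in CCD 841 CoN, while MYH11 and DES were higher on average in each cancer line (0.749 to 2.01 CPM and 0.0491 to 6.69 CPM) than in CCD 841 CoN (0.592 and 0.0286 CPM). Endothelial and immune markers summed to 2.68 CPM or less in every line. The line labelled normal colon thus lacked or barely held defining epithelial transcripts and carried fibroblast transcripts. The part of this difference in cell type in the results below was not tested.

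Set against CCD 841 CoN, the factors were called higher nearly throughout. A gene was called when edgeR's quasi-likelihood test gave a Benjamini-Hochberg adjusted p below 0.05 over 14452 genes and the log2 fold change was at least 1 in size. All 7 factors were called higher in LoVo, where 26.5% of all genes were, in LS1034, where 25.7% were, and in HT-29, where 24.7% were. In HCT 116, 4 of the 7 were called higher, against 25.4% of all genes, and GATA6, KLF5 and CDX1 were not called. The median log2 fold change of all genes was 0.21 to 0.24 in these comparisons.

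**Figure D1:**
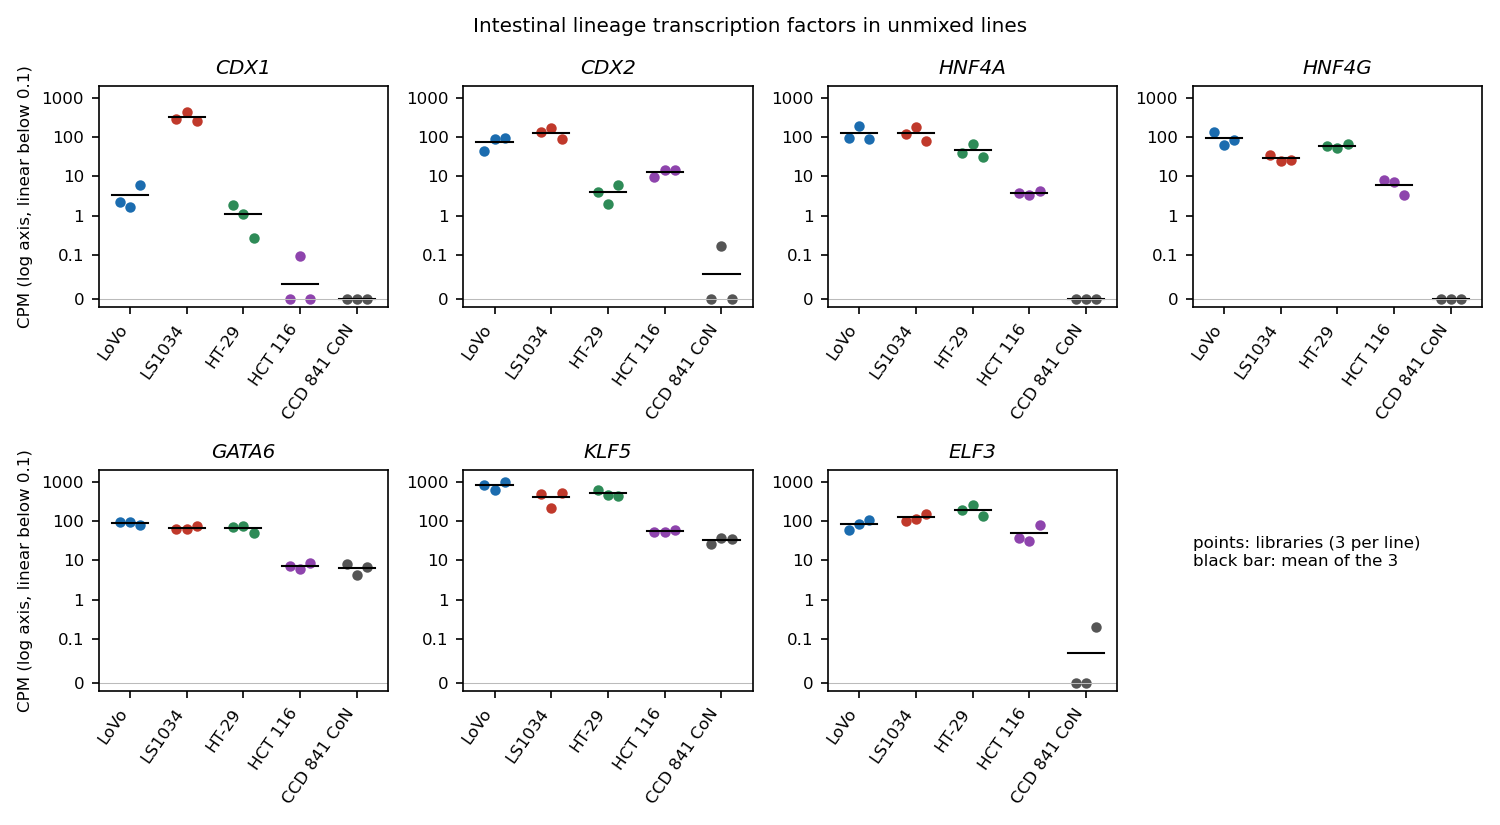
Level of each factor in the 15 unmixed libraries, in CPM on a log axis that is linear below 0.1. Points are single libraries and bars are line means. CDX1 stands high in LS1034 alone, GATA6 and KLF5 lie low in HCT 116 beside CCD 841 CoN, and ELF3 varies least over the cancer lines.

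CDX1 showed the widest difference between the cancer lines. It was abundant in LS1034 alone, with 285, 436 and 255 CPM in its 3 libraries. In LoVo CDX1 had 2.22, 1.65 and 6.06 CPM, and in HT-29 it had 1.91, 1.12 and 0.278 CPM. HCT 116 gave 2 CDX1 counts in all, both in replicate 2, and CCD 841 CoN gave none. No library of another line came near the lowest LS1034 library. CDX1 was at least 4988-fold higher in LS1034, at least 50.7-fold higher in LoVo and at least 16.9-fold higher in HT-29 than in CCD 841 CoN, taking 3 counts over the 3 reference libraries as the floor (edgeR adjusted p 7.41e-08, 1.11e-04 and 0.00121). Between the cancer lines, CDX1 in LoVo was lower than in LS1034 (log2 fold change -6.69 ± 0.66 SE, edgeR adjusted p = 4.57e-06). CDX1 in LoVo and in HT-29 overlapped, and the test did not separate them (1.37 ± 0.58, adjusted p = 0.0920). That pair passed without LoVo replicate 2 (1.73, edgeR adjusted p = 0.0405) or without HT-29 replicate 1 (2.01, 0.0451).

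CDX2 was present in all 4 cancer lines but at levels far apart. Its libraries held 43.2, 88.7 and 96.5 CPM in LoVo, and 132, 170 and 88.2 CPM in LS1034. HT-29 libraries held 4.04, 2.01 and 5.93 CPM, and HCT 116 libraries 9.39, 14.7 and 14.9 CPM. CCD 841 CoN gave 2 CDX2 counts, both in replicate 2. LoVo and LS1034 overlapped, and HCT 116 and then HT-29 lay below them without overlap. The ratio of the line's mean CPM to the pooled CCD 841 CoN level, which is its 2 counts over the total of its 3 libraries, was 1751 in LoVo (95% counting interval 485 to 14461), 2993 in LS1034 (829 to 24718), 91.7 in HT-29 (25.4 to 758) and 299 in HCT 116 (82.7 to 2468). With the mean CPM of the 3 CCD 841 CoN libraries as the denominator, the ratio was 1332 in LoVo, 2277 in LS1034, 69.8 in HT-29 and 227 in HCT 116. All 4 lines were called (largest edgeR adjusted p 1.11e-05). CDX2 was the only factor lower in HT-29 than in HCT 116 (-1.64 ± 0.46, edgeR adjusted p = 0.0106). LoVo and LS1034 did not differ beyond the spread of their libraries (-0.83 ± 0.43, edgeR adjusted p = 0.170).

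The CDX2 promoter is shown because CDX2 separates these lines. Promoter sequences were taken from RefSeq, where 5 of the 7 factors were matched by symbol (CDX2, HNF4A, GATA6, KLF5 and ELF3). Core motifs of the factors were searched on both strands in the 250 bases before each start. The CDX core was taken as TTTATG and the core of the HNF4 receptors as CAAAGT. The core of GATA proteins was taken as AGATAA and that of the KLF and SP family as GGGCGG. For ETS factors the core was taken as AGGAAG. Only these exact strings were searched, so other forms of the same sites were not looked for. The CDX2 window lies on the minus strand of build GRCh38.p14 at chr13:27969316-27969565 and is printed 5′ to 3′ on that strand, with the motif matches in capitals.
CDX2: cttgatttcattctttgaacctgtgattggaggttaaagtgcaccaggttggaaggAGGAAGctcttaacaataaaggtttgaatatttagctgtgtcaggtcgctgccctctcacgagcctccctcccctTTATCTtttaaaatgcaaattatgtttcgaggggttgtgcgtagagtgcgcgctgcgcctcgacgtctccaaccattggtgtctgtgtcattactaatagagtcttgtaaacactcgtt
The first capitals are an ETS core that begins 194 bases before the start, and the second a GATA core read from the other strand, at 119 bases. Of all 35116 windows of this length, 28.7% hold the ETS core and 9.2% the GATA core, so that neither match is rare. None of the strings searched for CDX, HNF4 or KLF stands in this window, which does not exclude other forms of their sites. A match is a string of letters in a window and shows no binding.

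HNF4A and HNF4G had no count in any CCD 841 CoN library and were found in every cancer library. HNF4A stood at 93.4, 190 and 88.0 CPM in LoVo, at 122, 179 and 80.0 CPM in LS1034 and at 40.4, 66.1 and 31.7 CPM in HT-29. In HCT 116 it stood at 3.78, 3.30 and 4.30 CPM. Replicate 2 was the highest HNF4A library of LoVo, LS1034 and HT-29, and the lowest of HCT 116. HNF4A was at least 1896-fold higher in LoVo, 1947-fold in LS1034, 706-fold in HT-29 and 58.2-fold in HCT 116 than in CCD 841 CoN, and each was called by edgeR (largest adjusted p 1.81e-06). Among the cancer lines LoVo and LS1034 were not separated (-0.10 ± 0.34, edgeR adjusted p = 0.858). HT-29 exceeded HCT 116 (3.64 ± 0.39, edgeR adjusted p = 8.63e-06). LoVo exceeded HT-29 (1.33 ± 0.35, edgeR adjusted p = 0.0104), a call that was lost without LoVo replicate 2 (0.97, adjusted p = 0.0552).

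HNF4G followed another order. It stood at 133, 64.1 and 86.0 CPM in LoVo, 35.4, 24.4 and 26.0 CPM in LS1034, 60.5, 54.3 and 65.7 CPM in HT-29, and 7.99, 7.28 and 3.28 CPM in HCT 116. LS1034 held less HNF4G than LoVo or HT-29 in every library. LoVo exceeded LS1034 (1.69 ± 0.38, edgeR adjusted p = 0.00388). LS1034 was lower than HT-29 by a small margin (-1.11 ± 0.38, edgeR adjusted p = 0.0435), and that call was lost whenever any of the 6 libraries was left out (adjusted p 0.0613 to 0.135). HNF4G was at least 1445-fold higher in LoVo, 439-fold in LS1034, 922-fold in HT-29 and 94.8-fold in HCT 116 than in CCD 841 CoN (largest edgeR adjusted p 8.63e-07).

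HNF4A is known to start from a pair of promoters, an upstream one and a downstream one, that give isoforms with different first exons. Gene counts add both, so the promoter in use cannot be read from these data. Both windows are shown because HNF4A had no count in CCD 841 CoN and its cancer line means lay up to 33.5 times apart. Each is on the plus strand of GRCh38.p14, the upstream one at chr20:44355449-44355698 and the downstream one at chr20:44400989-44401238, with motif matches in capitals.
HNF4A upstream window: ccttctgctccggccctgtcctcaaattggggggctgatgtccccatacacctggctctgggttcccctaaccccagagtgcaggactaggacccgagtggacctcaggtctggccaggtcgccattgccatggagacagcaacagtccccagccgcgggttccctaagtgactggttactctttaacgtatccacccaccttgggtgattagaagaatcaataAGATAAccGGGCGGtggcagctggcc
HNF4A downstream window: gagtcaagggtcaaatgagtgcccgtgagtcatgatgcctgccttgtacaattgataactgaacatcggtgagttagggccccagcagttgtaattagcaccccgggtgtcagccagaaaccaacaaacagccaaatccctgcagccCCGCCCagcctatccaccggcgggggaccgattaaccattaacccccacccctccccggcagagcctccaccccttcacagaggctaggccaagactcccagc
The capitals of the upstream window are a GATA core 26 bases before the start and a KLF and SP core at 18 bases. That of the downstream window is a KLF and SP core on the other strand, at 103 bases. The KLF and SP core stands in 42.6% of all windows. Neither window holds the string searched for CDX, HNF4 or ETS, and the downstream window does not hold AGATAA. Other forms of these sites were not searched.

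GATA6 split the lines into high and low groups. It stood at 95.3, 97.4 and 81.9 CPM in LoVo, at 63.7, 64.3 and 76.0 CPM in LS1034 and at 70.3, 75.9 and 51.3 CPM in HT-29. HCT 116 libraries held 7.24, 6.16 and 8.65 CPM, within reach of the 8.00, 4.37 and 6.81 CPM in CCD 841 CoN. The first 3 lines lay far above the last pair, whose libraries overlapped. Relative to CCD 841 CoN the mean was 14.3-fold higher in LoVo, 10.6-fold in LS1034 and 10.3-fold in HT-29 (edgeR adjusted p 9.42e-08, 2.37e-07 and 2.74e-07). The mean in HCT 116 was 1.15 times that in CCD 841 CoN by CPM, and its fitted log2 fold change was -0.11 ± 0.28 (edgeR adjusted p = 0.757). The sign of that value depended on the scaling, being 0.19 when library size alone was used. The test did not separate LoVo, LS1034 and HT-29 (edgeR adjusted p 0.281 to 0.954). Its SD within a cancer line was 9.21 to 19.6% of the mean, while each of the other factors reached 41.0% or more in at least 1 cancer line.

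KLF5 was measured in all lines, CCD 841 CoN included. It stood at 853, 613 and 967 CPM in LoVo, at 480, 211 and 511 CPM in LS1034 and at 606, 463 and 445 CPM in HT-29. HCT 116 held 51.7, 54.1 and 59.7 CPM, against 26.0, 36.4 and 34.9 CPM in CCD 841 CoN. HCT 116 lay above CCD 841 CoN in every library, but at 1.70 times the mean it was not called (0.46 ± 0.32, edgeR adjusted p = 0.244). The mean was 25.0-fold higher in LoVo, 12.3-fold in LS1034 and 15.5-fold in HT-29 than in CCD 841 CoN (edgeR adjusted p 9.30e-08, 7.81e-07 and 3.37e-07). LoVo exceeded LS1034 by a log2 fold change of 0.96 ± 0.32, under the fold limit (edgeR adjusted p = 0.0337). With the replicate number as a block among the cancer lines that difference was called (1.01, edgeR adjusted p = 0.00652). Leaving out a library moved it between 0.64 and 1.18 and made it a call in 3 of 6 fits.

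ELF3 was the most evenly held of the factors. It stood at 59.9, 82.4 and 107 CPM in LoVo, at 102, 114 and 156 CPM in LS1034, at 195, 255 and 136 CPM in HT-29 and at 36.8, 30.5 and 79.9 CPM in HCT 116. CCD 841 CoN gave 2 counts, both in replicate 3. Neighbouring lines overlapped at each step of that order from HT-29 down to HCT 116. The highest line mean was 3.97 times the lowest over the cancer lines, against 12.5 for GATA6, 14.7 for KLF5, 15.2 for HNF4G, 32.6 for CDX2 and 33.5 for HNF4A. The ratio to the pooled CCD 841 CoN level was 1914 in LoVo (95% counting interval 530 to 15802), 2848 in LS1034 (788 to 23516), 4488 in HT-29 (1242 to 37060) and 1129 in HCT 116 (313 to 9324), and all were called (largest edgeR adjusted p 4.61e-08). With the mean CPM of the 3 CCD 841 CoN libraries as the denominator, the ratio was 1209 in LoVo, 1800 in LS1034, 2836 in HT-29 and 714 in HCT 116. HT-29 exceeded HCT 116 (2.03 ± 0.43, edgeR adjusted p = 0.00159). LoVo was lower than HT-29 (-1.30 ± 0.42, edgeR adjusted p = 0.0262), a call lost in 4 of 6 fits without a library (-1.55 to -1.06). LS1034 exceeded HCT 116 (1.37 ± 0.42, edgeR adjusted p = 0.0166), a call lost in 3 of 6 such fits (1.12 to 1.93).

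The 6 pairs of cancer lines were compared for all 7 factors. HCT 116 stood apart from the other 3 lines. LS1034 and HT-29 each differed from it in all 7 factors, against 32.9% and 30.6% of all genes, and LoVo differed from it in 6, against 22.1%. The exception was ELF3 in LoVo (0.73 ± 0.41, edgeR adjusted p = 0.221), which was called without HCT 116 replicate 3 (1.29, adjusted p = 0.0398). Of these calls, only CDX2 in HT-29 was lower than in HCT 116. LS1034 and HT-29 differed in 4 factors, against 22.6% of all genes: CDX1, CDX2 and HNF4A were higher in LS1034 and HNF4G was lower. LoVo and HT-29 differed in 3 factors, CDX2, HNF4A and ELF3, against 27.2%, and LoVo and LS1034 in 2, CDX1 and HNF4G, against 26.0%. The number of pairs called was 5 of 6 for CDX1, CDX2, HNF4A and HNF4G, and 3 of 6 for GATA6, KLF5 and ELF3. For GATA6 and KLF5 the 3 pairs were those with HCT 116.

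**Figure D2:**
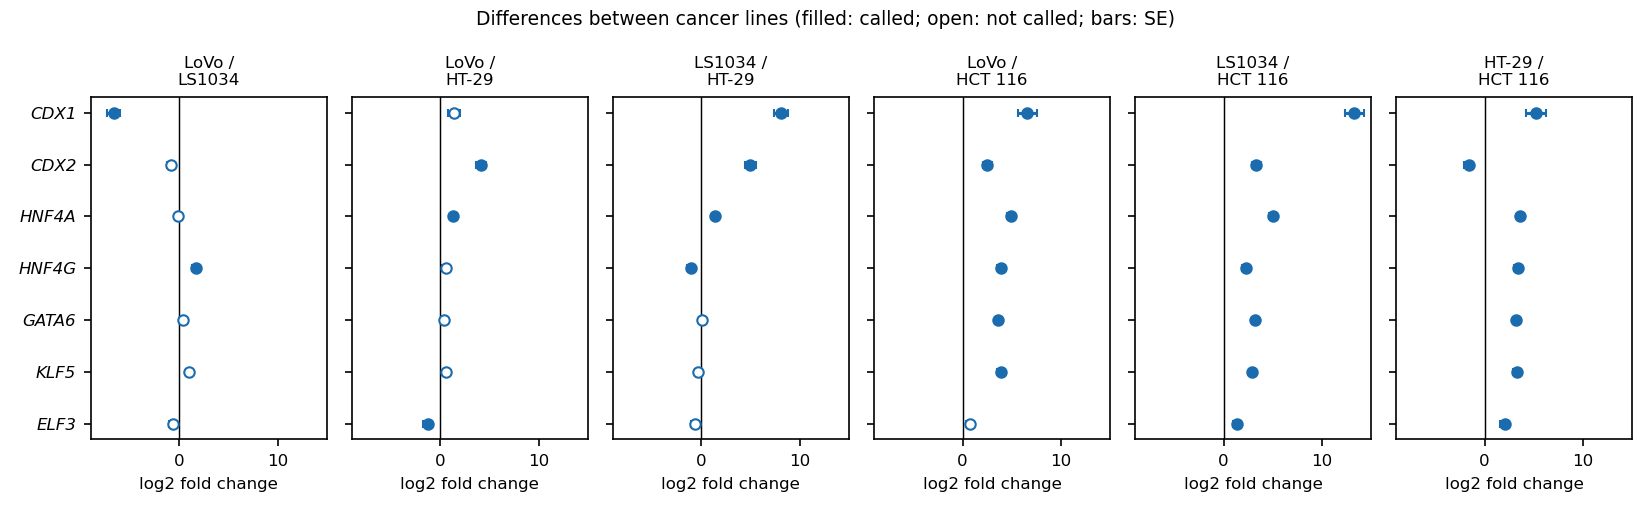
Fitted log2 fold change of each factor in the 6 pairs of cancer lines, with its SE as a bar. Filled points were called by edgeR at an adjusted p below 0.05 and a log2 fold change of at least 1 in size, and open points were not. LS1034 and HT-29 differ from HCT 116 in all 7 factors, and LoVo and LS1034 differ in 2.

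The mean of the 4 cancer lines against CCD 841 CoN averages their log2 fold changes. All 7 factors were called higher, against 24.8% of all genes. The median log2 fold change was 8.78 over the 7 factors, against 0.22 over all genes. It was 8.77 with CDX1, HNF4A and HNF4G set to the mean of their log2 floors by line, a line with 3 counts or fewer taken as 0. The CDX1 call rested on the 2 counts in HCT 116 replicate 2 and was lost without that library (edgeR adjusted p = 7.70e-04 with it and 1.00 without it), although CDX1 was called in LoVo, LS1034 and HT-29 each.

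Patterns over the 15 unmixed libraries were described by Pearson's r of log2(CPM + 1), with libraries of 5 lines sharing their line. GATA6 and KLF5 were most alike of the 7 factors (r = 0.97), followed by HNF4A with GATA6 and HNF4G with KLF5 (0.95 each). CDX1 and HNF4G were least alike (0.37). Among 11381 genes that reached 10 CPM in a line, the pattern nearest to GATA6 was TMEM45B (0.99), a membrane protein, at 174 CPM in LoVo, 168 CPM in LS1034, 134 CPM in HT-29 and 0.314 CPM in HCT 116, against 0.0541 CPM in CCD 841 CoN. FOXA2, a forkhead factor of the endoderm, and ACSS1 followed (0.98 each). S100P, a calcium-binding protein, was nearest to KLF5 (0.98, with TOX3 at 0.98 and TMEM45B at 0.97 after it). S100P averaged 675 CPM in LoVo, 379 CPM in LS1034, 490 CPM in HT-29 and 0.117 CPM in HCT 116, against no count in CCD 841 CoN. HOXA13, a homeobox factor of the hindgut, TC2N and SOWAHC were nearest to HNF4G (0.98 each), and INPP5D, VIPR1 and PRR15 to HNF4A (0.98 each). CLDN4, a tight junction claudin, TMC6 and GRB7 were nearest to ELF3 (0.99 each), and TUBAL3, POU5F1B and AOAH to CDX1 (0.98 each). NDUFAF5 (0.97) and LPAR5 (0.96) were nearest to CDX2.

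Other transcription factors of gut and endoderm were read from a list of 21 genes, of which 18 were tested. In the mean of the cancer lines 15 were called higher and 0 lower, with a median log2 fold change of 5.82 (3.78 with genes at 0 in CCD 841 CoN set to their floors in the same way), against 24.8% of all genes called higher. By line, 14 were called higher in LoVo, 15 in LS1034, 13 in HT-29 and 10 in HCT 116, where 24.7 to 26.5% of all genes were. GRHL2, a grainyhead factor of epithelia, averaged 59.7 CPM in LoVo, 34.4 CPM in LS1034, 37.9 CPM in HT-29 and 28.4 CPM in HCT 116, with no count in CCD 841 CoN. OVOL1, a zinc-finger factor of epithelia, averaged 14.6 CPM in LoVo, 30.4 CPM in LS1034, 35.6 CPM in HT-29 and 7.49 CPM in HCT 116, with no count in CCD 841 CoN. Both were held in HCT 116, unlike FOXA2, which averaged 41.9 CPM in LoVo, 30.9 CPM in LS1034, 18.6 CPM in HT-29 and 0.0404 CPM in HCT 116, with no count in CCD 841 CoN. FOXA2 was higher in HT-29 than in HCT 116 (8.41 ± 0.67, edgeR adjusted p = 6.10e-07). ONECUT2, a cut homeobox factor, was highest in HT-29 at 50.5 ± 19.5 CPM and averaged 0.718 to 4.82 CPM in the other cancer lines, with no count in CCD 841 CoN.

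**Figure D3:**
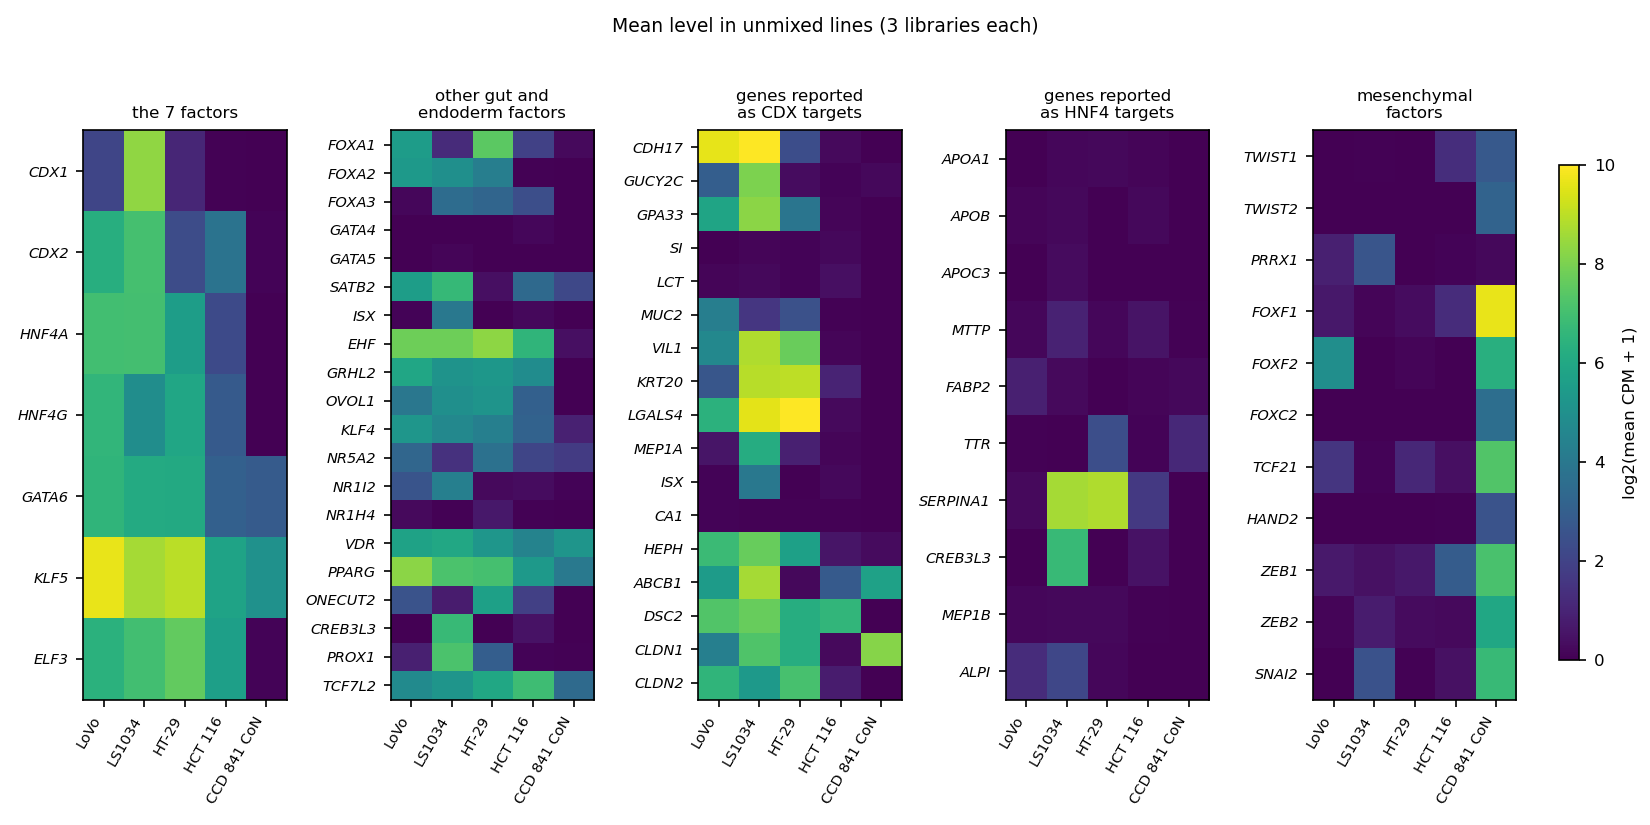
Mean level in each unmixed line (3 libraries), as log2(mean CPM + 1), for the 7 factors, other gut and endoderm factors, genes reported as CDX or HNF4 targets and mesenchymal factors. Mesenchymal factors such as FOXF1 are bright in CCD 841 CoN, and FOXA2 is dark in HCT 116.

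Genes reported as CDX targets numbered 17, of which 14 were tested. In the mean of the cancer lines 12 were called higher and 2 lower (median log2 fold change 9.44, or 7.26 with floors), against 24.8% and 22.3% of all genes. By line, 11 were called higher and 1 lower in LoVo, against 26.5% and 21.6% of all genes, and 13 higher and 1 lower in LS1034, against 25.7% and 21.4%. In HT-29, 10 were called higher and 2 lower, against 24.7% and 20.9%. In HCT 116, 3 of the 14 were called higher and 2 lower, against 25.4% and 21.2% of all genes, so that the count there is near the share of all genes. Between cancer lines, 13 of the 14 were higher in LS1034 than in HCT 116, where 16.6% of all genes were, and 11 were higher in LoVo, where 11.9% of all genes were. In HT-29 CDX2 was lower than in HCT 116, and CDX1 was higher (5.24 ± 1.00, edgeR adjusted p = 0.00103), at 1.10 against 0.0324 CPM. Of the 14 genes, 10 were higher and 1 lower in HT-29 than in HCT 116, against 15.2% and 15.4% of all genes. CDH17, an intestinal cadherin, averaged 801 ± 234 CPM in LoVo, 1646 ± 621 CPM in LS1034, 4.15 ± 0.824 CPM in HT-29 and 0.182 ± 0.264 CPM in HCT 116 (SD, n = 3 each), with no count in CCD 841 CoN. It was higher in HT-29 than in HCT 116 (4.68 ± 0.68, edgeR adjusted p = 1.26e-04). In that pair CDX1 had the same direction and CDX2 the reverse. KRT20, a keratin of differentiated gut cells, averaged 5.46 CPM in LoVo, 489 CPM in LS1034, 509 CPM in HT-29 and 0.989 CPM in HCT 116. CLDN2, a pore-forming claudin, averaged 91.7 CPM in LoVo, 41.2 CPM in LS1034, 134 CPM in HT-29 and 0.683 CPM in HCT 116. DSC2, a desmosomal cadherin, averaged 155 CPM in LoVo, 204 CPM in LS1034, 73.1 CPM in HT-29 and 95.3 CPM in HCT 116. CCD 841 CoN gave no count of these last 3 genes. CLDN1, a claudin, and ABCB1, a drug efflux pump, were called lower. CLDN1 averaged 18.8 CPM in LoVo, 150 CPM in LS1034, 74.0 CPM in HT-29 and 0.184 CPM in HCT 116, against 286 CPM in CCD 841 CoN. ABCB1 averaged 43.5 CPM in LoVo, 400 CPM in LS1034, 0.170 CPM in HT-29 and 6.05 CPM in HCT 116, against 51.8 CPM in CCD 841 CoN. Its fitted mean of log2 fold changes was negative (-2.40), while its mean CPM over the cancer lines was 2.17 times that of CCD 841 CoN.

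Genes reported as HNF4 targets were fewer. Of the 11 listed, 5 were tested. In the mean of the cancer lines 2 were called higher and 1 lower (median log2 fold change 5.48, or 2.82 with floors), against 24.8% and 22.3% of all genes. With 5 genes, both counts are near those shares. By line, 1 was called higher in LoVo, 3 in LS1034, 1 in HT-29 and 2 in HCT 116, where 24.7 to 26.5% of all genes were. In LoVo, LS1034 and HCT 116, 1 was called lower, and in HT-29 0, against 20.9 to 21.6% of all genes. SERPINA1 and CREB3L3 were those called higher in the mean. SERPINA1, a protease inhibitor, averaged 0.183 CPM in LoVo, 404 CPM in LS1034, 448 CPM in HT-29 and 2.15 CPM in HCT 116, with no count in CCD 841 CoN. CREB3L3, a membrane-bound factor of lipid metabolism, averaged 107 ± 30.6 CPM in LS1034 and 0.0134 to 0.404 CPM in the other cancer lines, with no count in CCD 841 CoN. TTR, the thyroid hormone carrier, was called lower in the mean (-3.72 ± 0.98, edgeR adjusted p = 0.00401), but its 92 counts in CCD 841 CoN spread as 1.24 ± 2.16 CPM, and HT-29 held 4.28 ± 1.82 CPM. LoVo had both SERPINA1 and CREB3L3 lower than LS1034 (edgeR adjusted p 2.11e-07 and 8.98e-07). In that pair HNF4A was not separated, and HNF4G was higher in LoVo (log2 fold change 1.69). The part of either receptor in the levels of these genes was not tested.

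Mesenchymal transcription factors went the other way. Of 11 tested, 10 were called lower in the mean of the cancer lines and 0 higher, against 22.3% of all genes called lower, with a median log2 fold change of -8.84 (-8.75 with floors). By line, 10 were called lower in each, against 20.9 to 21.6% of all genes, and PRRX1, a homeobox factor of mesenchyme, was called higher in LS1034 (4.78 ± 1.61, edgeR adjusted p = 0.0199). PRRX1 averaged 5.17 ± 4.62 CPM in LS1034, against 0.171 ± 0.297 CPM in CCD 841 CoN. FOXF1, a forkhead factor of gut mesenchyme, averaged 0.584 CPM in LoVo, 0.113 CPM in LS1034, 0.247 CPM in HT-29 and 1.39 CPM in HCT 116, against 809 ± 33.0 CPM in CCD 841 CoN. Its relative FOXF2 averaged 30.1 CPM in LoVo and 0 to 0.0926 CPM in the other cancer lines, against 77.2 CPM in CCD 841 CoN. FOXC2 and SNAI2, a factor of mesenchymal transition, were lower as well, SNAI2 at 0.0134 to 4.79 CPM against 105 ± 21.4 CPM in CCD 841 CoN. Of 6 tested factors of other epithelia, 2 were called higher and 1 lower in the mean, near the 24.8% and 22.3% of all genes. By line, 2 were called higher in LoVo, 3 in LS1034, 3 in HT-29 and 4 in HCT 116, where 24.7 to 26.5% of all genes were. In LoVo 2 were called lower, and in each other cancer line 1 was. PAX6, a factor of eye and pancreatic islets, averaged 34.4 CPM in LS1034 and 1.77 to 6.88 CPM in the other cancer lines, against 1.75 CPM in CCD 841 CoN, and GATA3, a factor of breast and T cells, 0.300 to 2.66 CPM against 12.8 CPM.

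The dilution series showed how far each factor could be followed as cancer RNA became scarce. The 4 series served as replicates of a percentage, with the line as a block, and calls used edgeR's adjusted p below 0.05 alone over 13212 genes. At 1% against 0.1%, 1 of the 7 factors was called, against 0.939% of all genes: ELF3 (2.35 ± 0.23, edgeR adjusted p = 1.33e-04). At 10%, 5 of 7 were called higher, against 6.21% of all genes, and GATA6 (0.82 ± 0.41, adjusted p = 0.322) and KLF5 (1.41 ± 0.44, edgeR adjusted p = 0.0729) were not. The CDX1 call at 10% (6.21, edgeR adjusted p = 0.00292) rested on the LS1034 series, since CDX1 had 0 counts at 0.1, 1 and 10% in the other 3. It was lost with DESeq2 (1.68, adjusted p = 0.964). Without the line block CDX1 (6.82, edgeR adjusted p = 0.290), CDX2 (5.05, 0.0690) and HNF4G (5.60, 0.0621) were lost at 10%. Without the HCT 116 series both were called, GATA6 at 1.16 (edgeR adjusted p = 0.0215) and KLF5 at 1.84 (5.92e-05). At 50%, all 7 were called higher, against 30.1% of all genes. CDX1 at 50% had 2413 counts in the LS1034 series, 28 in LoVo, 20 in HT-29 and 0 in HCT 116. Its call was lost with DESeq2 (6.17, adjusted p = 0.0824), and it could be tested in only 3 of the 4 fits without a series. The ELF3 call at 1% was lost without the line block (2.26, edgeR adjusted p = 0.281) and with only those percentages in the fit (2.39, adjusted p = 0.169).

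**Figure D4:**
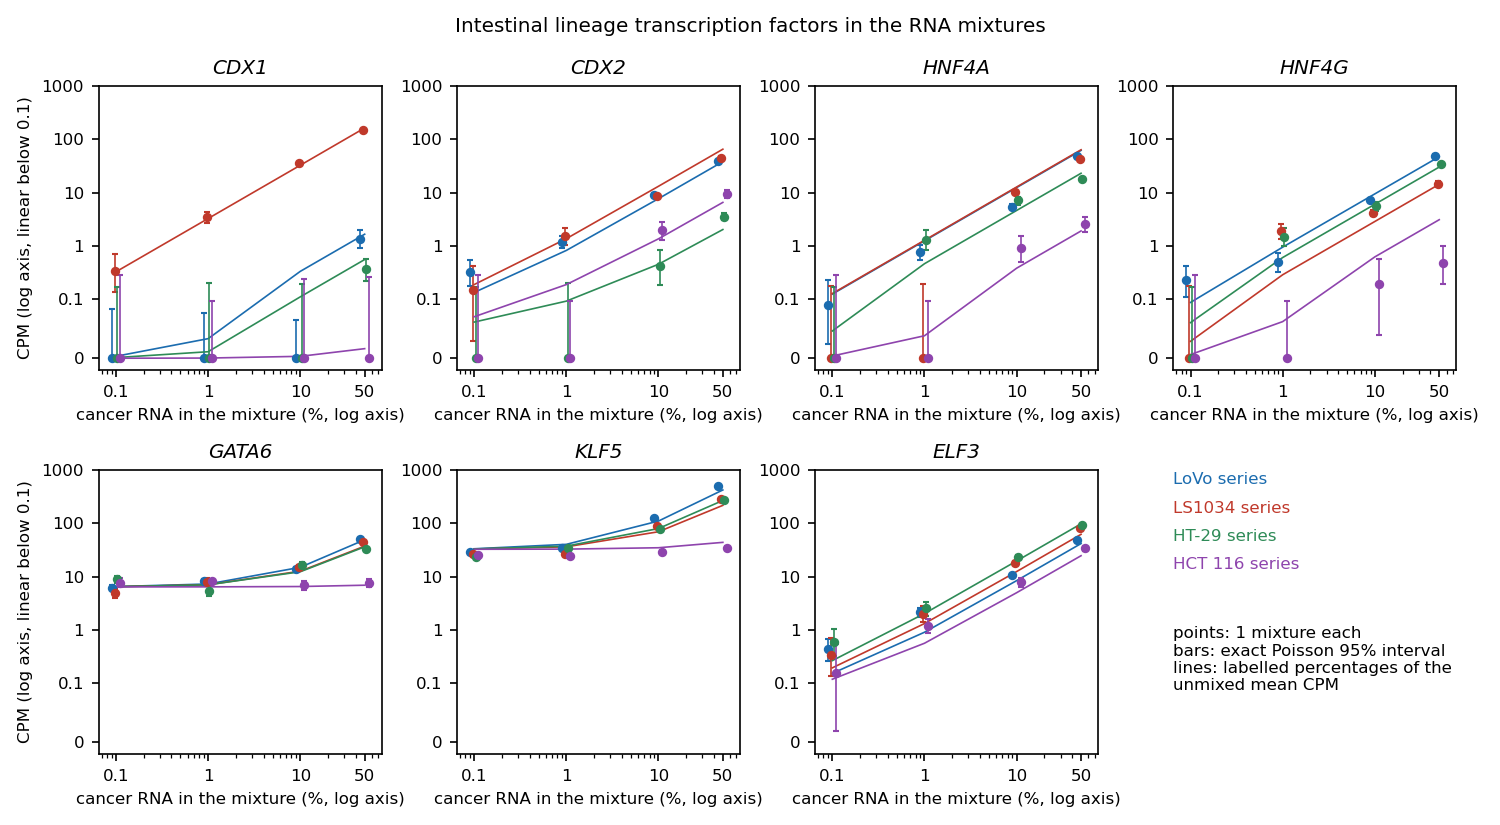
Level of each factor in the 16 mixtures against the labelled percentage of cancer RNA, both on log axes (CPM linear below 0.1). Points are single libraries with exact Poisson 95% intervals, and lines show the labelled percentages of the unmixed means. ELF3 climbs with the percentage in every series and lies above its lines at 0.1, 1 and 10%, while GATA6 and KLF5 start near the level of CCD 841 CoN.

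The lowest percentage at which a factor gave more than 3 counts depended on the line. ELF3 had 19 counts in the LoVo mixture at 0.1%, 7 in LS1034, 13 in HT-29 and 2 in HCT 116, where 45 came at 1%. CDX1 could be followed in LS1034 from 0.1%, with 7, 67, 1950 and 2413 counts at 0.1, 1, 10 and 50%. In the LoVo and HT-29 series CDX1 first gave counts at 50%, with 28 and 20, and in the HCT 116 series it gave none. CDX2 exceeded 3 counts from 0.1% in LoVo, from 1% in LS1034 and from 10% in HT-29 and HCT 116. HNF4A did so from 0.1% in LoVo, from 1% in HT-29 and from 10% in LS1034 and HCT 116. HNF4G did so from 0.1% in LoVo, from 1% in LS1034 and HT-29 and from 50% in HCT 116. Counts depend on library depth as well as on the share, and the mixtures ranged from 13075811 to 56741879 counts.

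GATA6 and KLF5, which CCD 841 CoN also expressed, were measured in every mixture. KLF5 in LoVo mixtures had 28.3, 33.8, 128 and 498 CPM at 0.1, 1, 10 and 50%, and in HCT 116 mixtures 24.9, 24.1, 29.2 and 33.9 CPM. In all 4 mixtures at 0.1% KLF5 lay at 23.1 to 28.3 CPM, at or below the lower part of the range of unmixed CCD 841 CoN (26.0 to 36.4 CPM). GATA6 in LoVo mixtures had 6.19, 8.07, 14.0 and 50.1 CPM, and in HCT 116 mixtures 7.72, 8.22, 6.80 and 7.62 CPM, with no steady course.

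Each mixture was set beside the level that its labelled percentage of the unmixed means would give. The share of cancer RNA implied by a factor is its level in the mixture minus that in CCD 841 CoN, over the level in the cancer line minus that in CCD 841 CoN. It was computed where the line held at least 1 CPM and at least 4 times the CCD 841 CoN level, which gave 25 shares at each percentage. Their median was 0% at 0.1, 0.618% at 1, 11.6% at 10 and 51.3% at 50% labelled. The ranges were wide, from -2.53 to 4.13% at 0.1%, from -1.64 to 6.64% at 1%, from 0 to 23.9% at 10% and from 7.84 to 87.8% at 50%. The same share from 520 to 716 marker genes per line, without the 7 factors, was 0.139 to 0.206% at 0.1%, 1.07 to 1.81% at 1%, 10.3 to 15.3% at 10% and 48.5 to 57.3% at 50%. Of the 100 shares of single factors, 38 had a 95% counting interval that covered the labelled percentage, and the intervals do not include the spread between libraries. These were 16 of 25 at 0.1%, 9 at 1%, 6 at 10% and 7 at 50%. At 0.1%, 10 of the 25 shares rested on 0 counts, so that covering the label there says little.

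**Figure D5:**
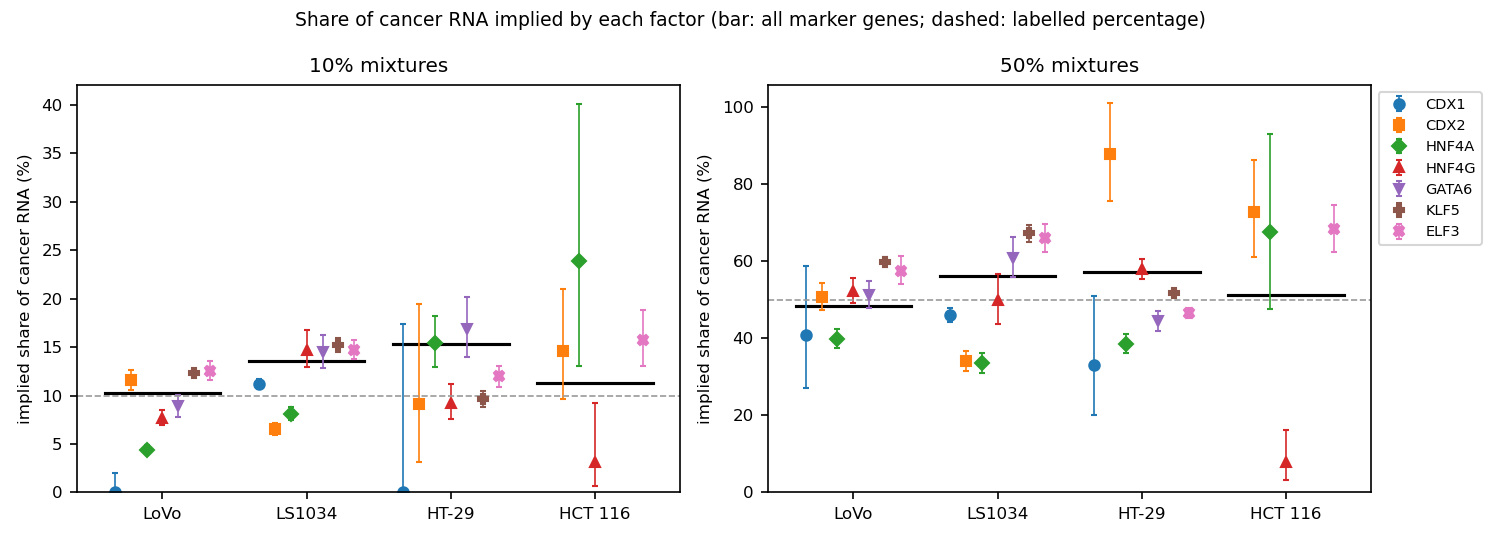
Share of cancer RNA implied by each factor in the 10% and 50% mixtures, in percent, with 95% counting intervals. Short bars mark the share from all marker genes of the line and dashed lines the labelled percentage. HNF4G in HCT 116 at 50% lies lowest, at 7.84%, and CDX2 in HT-29 at 50% highest, at 87.8%.

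HNF4A fell short of its label at several points and exceeded it at others. In the LS1034 mixture at 1% it had 0 counts where 24.7 would follow from the label, while HNF4G had 37 counts where 5.57 would. The implied shares were 0% for HNF4A (interval 0 to 0.149%) and 6.64% for HNF4G (4.67 to 9.15%) in that 1 library. CDX1 and CDX2 lay near the label there, at 1.06% and 1.14%. At 50% HNF4A implied 39.8% in LoVo, 33.5% in LS1034 and 38.5% in HT-29, each below the label beyond its counting interval, and 67.5% in HCT 116, where the interval (47.5 to 93.0%) covered the label. At 10% it implied 4.42% in LoVo and 8.11% in LS1034, against 15.4% in HT-29 and 23.9% in HCT 116. In HT-29 at 1% HNF4A had 24 counts where 8.42 would follow, which implied 2.85% (1.83 to 4.24%). The LS1034 shortfall was not particular to HNF4A, since CDX2 implied 6.52% at 10% and 34.1% at 50% there. The unmixed libraries behind these shares spread as well, with HNF4A at 190 CPM in replicate 2 of LoVo and at 88.0 CPM in replicate 3.

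ELF3 lay above the level that follows from the label in all 4 series at 0.1, 1 and 10%. At 0.1% it stood at 2.83 times that level in LoVo, 1.76 in LS1034, 2.26 in HT-29 and 1.30 in HCT 116, and at 1% at 2.36, 1.53, 1.25 and 2.11 times. In the same order it stood at 1.25, 1.47, 1.19 and 1.56 times at 10%, and at 1.15, 1.32, 0.934 and 1.37 times at 50%. The HCT 116 value at 0.1% rests on 2 counts where 1.54 would follow. The level that follows includes the CCD 841 CoN mean of 0.0688 CPM, which comes from 2 counts in replicate 3. Counting intervals leave out the error of that mean. The counting interval left out the label in LoVo and HT-29 at 0.1%, in LoVo, LS1034 and HCT 116 at 1% and in all 4 series at 10%. The share from all marker genes also lay above the label, at 0.139 to 0.206% at 0.1%, 1.07 to 1.81% at 1% and 10.3 to 15.3% at 10%. The ELF3 interval covered that share in LS1034, HT-29 and HCT 116 at 0.1% and in LS1034 at 1%. In HT-29 at 1% ELF3 implied 1.25% (0.909 to 1.69%), below the marker share of 1.81%. Above it lay ELF3 in LoVo at 0.1 and 1% and in HCT 116 at 1%. At 10% ELF3 lay above the marker share in LoVo, LS1034 and HCT 116 and below it in HT-29.

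Other single mixtures lay far from the label. CDX1 had 0 counts in the LoVo mixture at 10%, where 18.8 would follow from the label. At 50% it had 28 counts where 34.3 would follow, and its counting interval (27.1 to 58.9%) covered the label. HNF4G had 7 counts in the HCT 116 mixture at 50%, where 44.7 would follow, and implied 7.84% (3.15 to 16.1%), while ELF3 implied 68.3% and CDX2 72.9% in the same library. CDX2 in HT-29 at 50% implied 87.8% (75.6 to 101%), with HNF4G at 57.9% and ELF3 at 46.7% beside it. KLF5 at 50% implied 59.8% in LoVo and 67.3% in LS1034, above the label, and 51.8% in HT-29, just above it. The share from all marker genes in these mixtures was 48.5% in LoVo, 56.3% in LS1034 and 57.3% in HT-29. There is 1 library for each mixture, so these departures have no replicate check.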

How the data were processed

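The deposited table held raw gene counts of 17113 protein-coding genes in 31 libraries, with no row that names no gene. Per the submitters' processing notes, the authors aligned reads to hg19 with STAR and counted them with featureCounts, and versions are not given in the sources used here. Per the labels' protocols, libraries were made with a stranded Roche KAPA kit with ribosomal RNA removal. Whether the authors' counting used strand is not given in the sources used here. The genes HNF4A, GATA6 and ELF3 overlap antisense genes (HNF4A-AS1, GATA6-AS1 and ELF3-AS1) in GENCODE, and reads of a gene and of its antisense partner then cannot be told apart.

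The 15 unmixed libraries were fitted together, and the 16 mixtures together, by the quasi-likelihood test of edgeR 4.0.16 in R 4.3.3, after filterByExpr and with TMM scaling (limma 3.58.1 loaded). DESeq2 1.42.0 was the other tool. Shares and figures came from Python 3.11.15 with pandas 2.3.3, numpy 2.4.6, matplotlib 3.10.9 and scipy 1.17.1. CPM were computed on total counts. A fold against no count uses 3 counts over the group as a floor, and with 1 to 3 counts an exact 95% interval is given. Intervals and floors cover counting error only, since reads without molecular identifiers are not independent molecules. Mixture intervals are exact Poisson intervals. The code was tested on simulated counts. Motifs were searched as exact letters.

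The members and the gene lists were chosen with earlier results of these data known. From each list the rule named up to 4 called genes with the largest changes and a line mean of at least 10 CPM, plus members called against the list, and the 3 genes most like each factor. Some genes are not reported here and were left out of the lists and their counts. Replicate numbers paired the cancer lines: 18 of 18 pairs of equal number correlated best with their own number (0.103 to 0.778), while 0 of 12 pairs with CCD 841 CoN did (-0.109 to 0.0177). The pairing comes from the data, since the labels give only the numbers. Alternatives were other scaling, no filter, DESeq2, only the compared groups, blocks and leaving out each library or series. The block among the cancer lines only was added after the pairing check.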

Additional observations from a re-analysis of the deposited data

Results flagged for a closer look

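The contrast with CCD 841 CoN had different sizes in different cancer lines for each factor, by the tests of 1 cancer line against another. The number of the 6 pairs called by edgeR was 5 for CDX1, 5 for CDX2, 5 for HNF4A, 5 for HNF4G, 3 for GATA6, 3 for KLF5 and 3 for ELF3.

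In 1 dilution series GATA6 did not climb with the percentage. In the HCT 116 mixtures it stood at 7.62 CPM at 50% (95% counting interval 6.26 to 9.18) and 7.72 CPM at 0.1% (6.29 to 9.39), a difference of -0.108 CPM that lies within the counting intervals. In the LoVo, LS1034 and HT-29 series it was 43.9, 39.1 and 23.9 CPM higher at 50%. Unmixed HCT 116 (7.35 CPM) and CCD 841 CoN (6.39 CPM) hold nearly equal GATA6. The difference between series was not tested, since each has 1 library per percentage.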

How the results depend on the processing

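The counts of factors and of genes called in the unmixed lines stayed within 1.5 times under every setting tried. The planned replicate block over all 15 libraries changed no call of a factor; among the cancer lines only, it added KLF5 in LoVo against LS1034 (1.01, edgeR adjusted p = 0.00652), as did library size alone (1.02, 0.0177). Library size alone moved the median log2 fold change of all genes against CCD 841 CoN to 0.45 to 0.56, the share of calls that were higher to 65.2% in LoVo and 64.9% in HCT 116 (55.1% and 54.5% with TMM) and to 97.2% in the 10% mixtures (84.0% with TMM), and GATA6 in HCT 116 to 0.19. The mixtures depended more on settings. At 1%, 124 genes were called, with 404 by DESeq2 (65.8% higher), 6 without the line block, 23 with only the compared percentages and 61 to 116 without a series; 1 factor was called, with 2, 0, 0 and 1 to 2. At 10%, 976 genes were called, with 1587 by DESeq2 (67.6% higher), 502 without the line block and 556 to 725 without a series; 5 factors were called, with 2 without the line block, 3 with only the compared percentages and 4 to 7 without a series. At 50%, 7160 genes were called, with 4611 with only the compared percentages and 6132 to 6499 without a series. There 7 factors were called, with 6 to 7 without a series. DESeq2 gave -0.03 for CDX1 at 1% and did not call CDX1 at 10% (1.68, adjusted p = 0.964) or 50% (6.17, adjusted p = 0.0824). The cause of these changes was not tested.

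Signs turned only in uncalled differences. Leaving out a library gave -0.50 to 0.22 for HNF4A in LoVo against LS1034, -0.59 to 0.01 for KLF5 and -0.10 to 0.16 for GATA6 in LS1034 against HT-29, 0.00 to 3.10 for CDX1 and -0.32 to 0.11 for GATA6 in HCT 116 against CCD 841 CoN, and leaving out a series gave -0.02 to 0.36 for GATA6 at 1%. Shares covering the label numbered 34 to 40 without a library and 35 with TMM-scaled CPM. Under the same settings, single shares moved outside their main counting interval 141 times and stayed inside it 555 times. Depth limits CDX1 and the HNF4 factors at 0.1%, where the label stands for fewer than 3 counts in most mixtures.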
